A study of Mus musculus with 48 samples.

Results

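The clustered protocadherin genes are 57 protein-coding genes of mouse chromosome 18 (GRCm38) that lie side by side on the plus strand, from the start of Pcdha1 at position 36930184 to the end of Pcdhgc5 at position 37841873. They were chosen by symbol: every row of the count table, of 48526 rows in all, whose Ensembl identifier belongs to a protein-coding gene named Pcdha, Pcdhb or Pcdhg in mouse GENCODE. The alpha cluster holds 14 of them, the beta cluster 22 and the gamma cluster 21. By type there are 12 alpha genes, 22 beta genes, 12 gamma A genes, 6 gamma B genes and 5 C-type genes (Pcdhac1, Pcdhac2, Pcdhgc3, Pcdhgc4 and Pcdhgc5).

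The libraries came from the cortex of 12 male C57BL/6JRj mice, 4 each at 3 weeks (3w), at 5 months (5m) and at 18 months (18m), and no genotype or treatment other than age separated the groups. For the middle group the titles say 6 months and the protocol says 5 months, and it is called 5m here. From each mouse, total homogenate (TH) and synaptosomes (SYN), pinched-off nerve terminals with their attached postsynaptic membrane, were prepared, and each was sequenced before (input) and after (SC) a sucrose cushion, which pellets ribosomes with the mRNAs they carry. The 4 fractions are called input_TH, SC_TH, input_SYN and SC_SYN, which gives 48 libraries and 4 mice in each of the 12 groups. The study compared ages within a fraction and SYN with TH, and took SC over input as the translation efficiency of a compartment. All 4 fractions came from bulk tissue, so a change in the number of cells of a type and a change in RNA per cell cannot be told apart.

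Clustered protocadherins are adhesion proteins of the cadherin superfamily, found mainly in neurons, that bind the same isoform on a facing cell. Each neuron switches on its own small set of the alpha, beta, gamma A and gamma B genes by choosing among their promoters, while C-type genes are not chosen in this random manner, and the resulting mixture lets a neuron tell its own branches from those of others. Every alpha or gamma gene contributes a variable first exon, which is spliced to constant exons that all genes of its cluster share, whereas each beta gene is complete in its own exon.

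This structure set what the counts could measure. Most alpha genes owned between 35.1% and 51.4% of their exonic bases, the remainder lying on exons annotated to other genes; Pcdha11 owned 16.8% and Pcdha4 owned 7% of its bases. In the gamma cluster the owned share ran from 0% for Pcdhga10, whose exons an antisense gene also covers in the annotation used here, to 68.5% for Pcdhgb5. Beta genes owned all of their bases except Pcdhb12 (36.5%), Pcdhb21 (90.3%) and Pcdhb22 (93.1%). Windows as long as a read matched another gene of the same cluster for a median of 55.1% of windows per alpha transcript set and 43.6% per gamma set, but for 0.186% per beta set, with the highest beta value, 7.71%, at Pcdhb21. No window matched a gene of another of the 3 clusters. Counts therefore describe variable exons, and levels are compared between genes only as CPM (counts scaled to a common library size by TMM) per kilobase of owned bases. The counting ignored strand. For 13 members with an annotated antisense gene, among them Pcdhb12, Pcdhga11 and Pcdhgc3, sense and antisense reads cannot be told apart and the owned length is uncertain.

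Library totals ranged from 1780267 counts in input_SYN to 18590040 in SC_SYN. Of the 57 members, 55 passed the filter on low counts in every comparison. Pcdha4 had 0 to 9 reads per library and Pcdhb1 had a median of 1.5 to 3.5 reads across the fractions, so neither was tested. Marker genes of neurons, astrocytes, oligodendrocytes and synaptic mRNAs all had reads in all 12 groups. The summed oligodendrocyte markers in input_TH were 3490 to 4330 CPM at 3w and 1510 to 1710 CPM at 5m, and nuclear RNAs summed to 16400 to 19100 CPM in input_TH but to 1590 to 4240 CPM in input_SYN. In SC_TH nuclear RNAs summed to 5240 to 13600 CPM, so the cushion pellet held these RNAs too.

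The gamma cluster carried most of the reads of the locus. In SC_SYN at 3w, gamma genes held 67.6% ± 1.02 (SD, n = 4) of all member reads, beta genes 17.9% ± 0.862 and alpha genes 14.5% ± 0.337. Pcdhgc5, a C-type gamma gene that comes on late in postnatal cortex, alone held 42.1% of gamma reads over the 48 libraries. Per owned kilobase its mean level was 94 CPM, followed in the gamma cluster by Pcdhgc3, which acts in dendrite arborization, at 69.6 CPM and by Pcdhga11 at 40.3 CPM. When length was taken as bases free of other genes on the same strand only, Pcdhgc5 stayed at 94 CPM per kilobase and Pcdhgc3 and Pcdhga11 came to 37.5 and 19.2 CPM, in the same order.

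Pcdhac2, the C-type alpha gene that serotonergic axons need to spread evenly, led the alpha cluster with 28.1 CPM per owned kilobase and 37.1% of alpha reads. It was followed by Pcdha12 at 15.6 CPM and Pcdha11 at 12 CPM per kilobase. The place of Pcdha11 rests on the length used, as it fell from the third to the tenth rank on same-strand length, at 3.31 CPM per kilobase. Among beta genes Pcdhb12 led at 15.3 CPM per owned kilobase, before Pcdhb9 at 10.5 and Pcdhb20 at 6.12, but on same-strand length Pcdhb12 came to 5.59 and Pcdhb9 led.

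**Figure D1:**
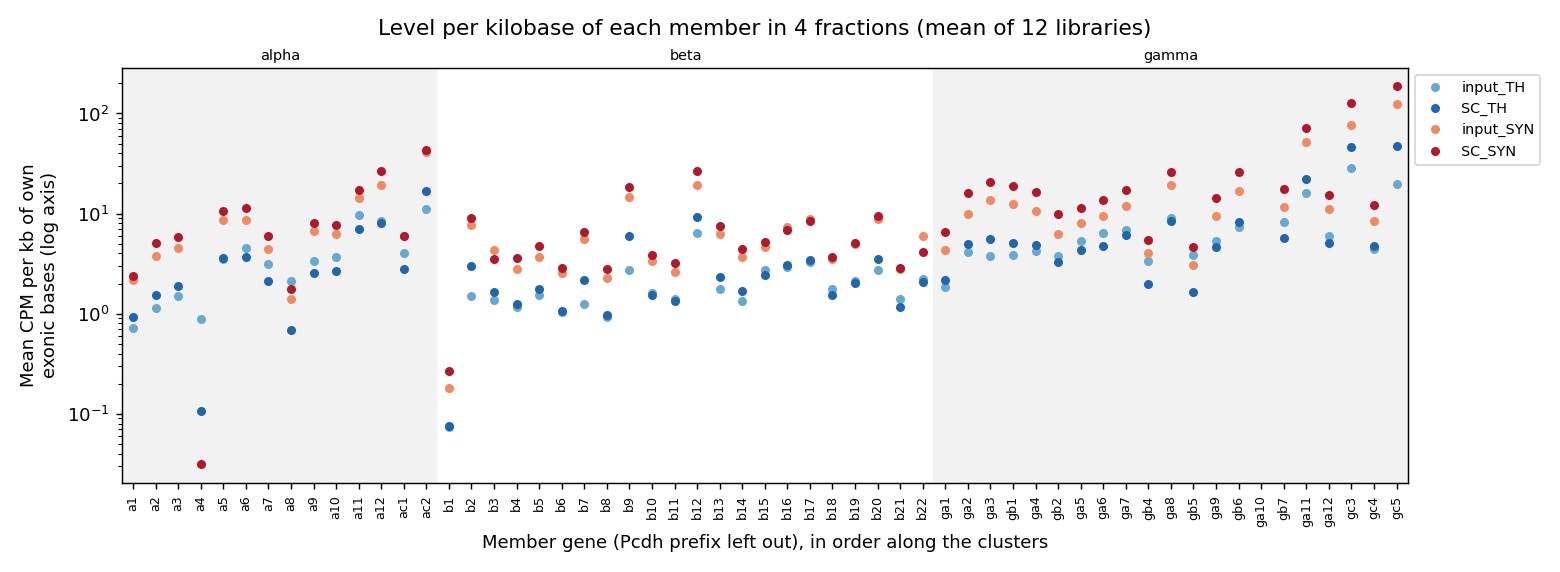
Mean level of each member over 12 libraries per fraction, in CPM per kilobase of owned exonic bases (log axis), with genes in their order along the clusters. Pcdhgc5 lies highest in SC_SYN, SC_TH and input_SYN and Pcdhgc3 in input_TH, and Pcdha4 and Pcdhb1 rest on few reads. The lead of Pcdhgc3 in input_TH rests on the owned length, which its antisense gene shortens. Over all libraries its level was 69.6 CPM per owned kilobase but 37.5 on same-strand length, while Pcdhgc5 had 94 on both.

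The other C-type genes were far lower. Pcdhgc4, which interneurons need to survive development, had 7.46 CPM and Pcdhac1 4.72 CPM per owned kilobase, within the range of their non-C-type neighbours. The median level per owned kilobase was highest for gamma genes in every fraction: in SC_SYN it was 16.1 CPM for 20 gamma genes, 6.9 for 14 alpha genes and 4.62 for 22 beta genes, and in input_TH it was 5.32, 3.45 and 1.58 CPM. These medians are descriptions over genes and carry no test.

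The first age step, 5m against 3w, asked how the members changed from the juvenile to the adult cortex. Gamma A and gamma B genes were the main group that rose, between 6 and 14 of them in each fraction, and no gamma gene passed the test in the other direction. In SC_SYN 10 members were higher and 2 lower at 5m by edgeR's quasi-likelihood test (Benjamini-Hochberg adjusted over all genes), where 4.02% of all 14240 genes tested were called higher and 4.02% lower. All 10 were gamma A or B genes. Without mouse 189 the called members fell from 12 to 7, all of them higher, and DESeq2 called 14 higher and 5 lower. The median log2 fold change of the 18 gamma A and B genes was 0.72, against -0.01 over all genes, and 18 of 18 lay above 0.

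The other fractions gave the same direction. In SC_TH 11 members were higher and 5 lower (9.48% and 8.46% of all genes), with 10 gamma genes among the higher. In input_SYN 6 were higher and 1 lower (1.28% and 1.94%), and all 6 were gamma genes. In input_TH 15 were higher and 2 lower (4.76% and 7.05%), with 14 gamma genes among the higher. In all, 6 genes, Pcdhga5, Pcdhga6, Pcdhga7, Pcdhga9, Pcdhgb6 and Pcdhgb7, passed the test upward in all 4 fractions. The median log2 fold change of the whole gamma cluster was 0.61 in input_SYN, 0.58 in SC_TH, 0.54 in SC_SYN and 0.48 in input_TH, against medians within 0.01 of 0 over all genes. At an unadjusted p under 0.05 the number of gamma genes lower was 2 in input_TH, 1 in SC_TH and 0 in both SYN fractions. Among the 13 gamma genes with no antisense gene, 8 were higher in input_TH, 7 in SC_SYN, 6 in SC_TH and 4 in input_SYN, and 0 lower. The 7 calls of input_SYN fell to 4 without mouse 188, 190 or 194.

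Pcdhgb7 passed in all 4 fractions, and is among the members with an annotated antisense gene, so its counts may hold reads of both strands. In SC_SYN its level was 21.1, 16.9, 19.5 and 16.1 CPM in the 4 mice at 3w and 44.5, 38.2, 44.2 and 39.5 CPM at 5m. The groups did not overlap, and the fitted log2 fold change was 1.13 (SE 0.14, adjusted p = 0.000261). In input_TH it was 9.27, 10, 10.6 and 10.9 CPM at 3w and 17.3, 16.2, 14.2 and 15.4 CPM at 5m, again with no overlap (log2 fold change 0.63, SE 0.0859, adjusted p = 0.000131). The log2 fold change was 1.08 in SC_TH (adjusted p = 0.000478) and 1.37 in input_SYN (adjusted p = 0.00104).

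Pcdhga9, which has no annotated antisense gene, also passed in all 4 fractions. Its level in SC_SYN was 24.8, 32.8, 29.1 and 24.8 CPM at 3w and 62.2, 53.1, 65.8 and 59.5 CPM at 5m, so that the lowest 5m library lay well above the highest 3w library (log2 fold change 1.07, SE 0.131, adjusted p = 0.000258). Of the other gamma genes with the lowest adjusted p in SC_SYN, Pcdhgb6 rose by 0.91 (adjusted p = 0.000768), Pcdhga4 by 0.74 (adjusted p = 0.00754) and Pcdhga8 by 0.54 (adjusted p = 0.00916) on the log2 scale. In input_TH, Pcdhga8 rose by 0.6 and Pcdhga11, which has an antisense gene, by 0.48 (adjusted p = 0.000702). In SC_TH, Pcdhga5 rose by 0.85 (adjusted p = 0.00125).

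The C-type gamma genes, which share the constant exons with these genes, did not pass the test in any fraction. Pcdhgc5 in SC_SYN was 773, 1120, 1210 and 816 CPM at 3w and 1030, 837, 776 and 971 CPM at 5m, with full overlap. Its log2 fold change was -0.2 in input_TH, -0.16 in SC_SYN, -0.15 in SC_TH and -0.09 in input_SYN. In both TH fractions every 5m library lay below every 3w library, although neither difference passed the test. In the same order, those of Pcdhgc3 were -0.19, 0.06, 0.1 and -0.13. The cluster's composition shifted accordingly: Pcdhgc5 held 53.1% ± 6.39 (SD, n = 4) of gamma reads in SC_SYN at 3w and 43% ± 3.28 at 5m, and in input_TH 26.3% ± 1.06 and 20% ± 1.52. The summed level of gamma A and B genes in SC_SYN went from 565 ± 25 to 882 ± 63.8 CPM and in input_TH from 203 ± 5.22 to 276 ± 12.7 CPM.

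**Figure D2:**
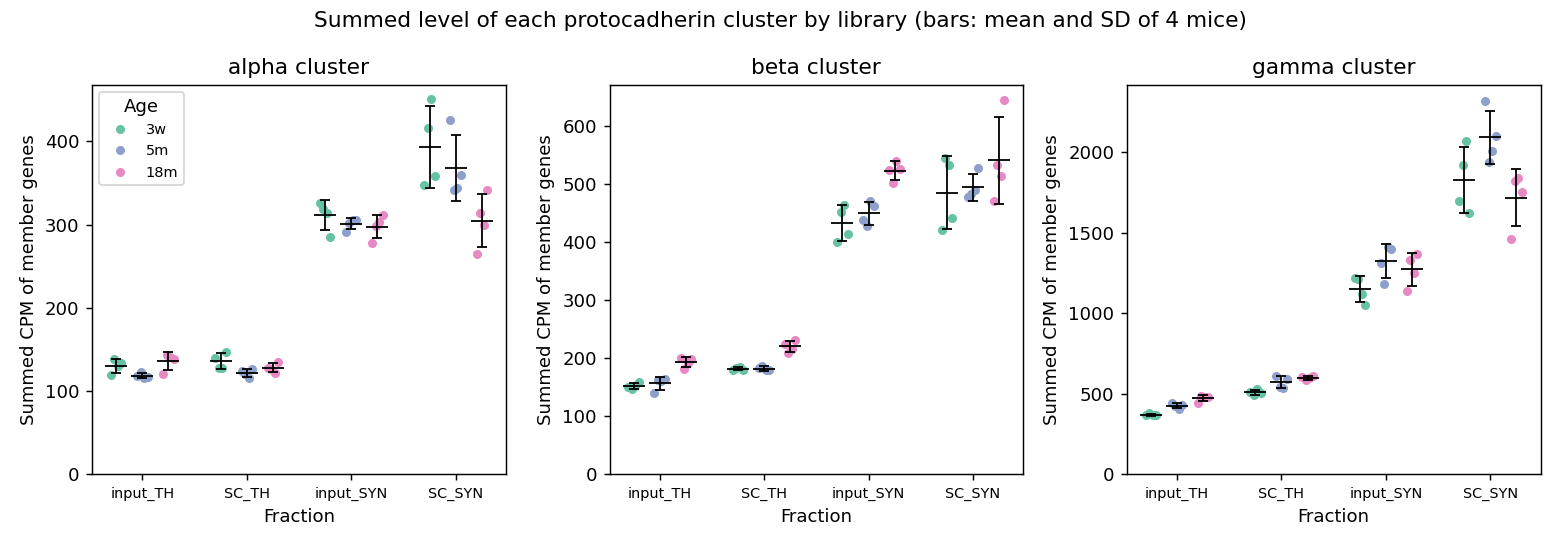
Summed CPM of the members of each cluster (y axis, linear from 0) in each library, by fraction and age, with bars for the mean and SD of 4 mice. Sums in SYN lie above those in TH in every cluster, and the beta sums of input_TH, SC_TH and input_SYN are highest at 18m.

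Some alpha and beta genes passed the test at this step, most of them downward. As a share of all 55 members tested, gamma genes included, these lower calls were close to or below the share of all genes called lower, in every fraction. Within clusters some shares were higher. In SC_TH 2 of 13 alpha genes (15.4%) and 3 of 21 beta genes (14.3%) were lower, against 8.46% of all genes. In input_TH 2 of 13 alpha genes (15.4%) and 0 of 21 beta genes were lower, against 7.05%. In SC_SYN the shares were 7.69% of alpha and 4.76% of beta genes, against 4.02%. In input_SYN they were 0% and 4.76%, against 1.94%. These are few calls per cluster, and the falls below are given as single genes. Pcdha3 in SC_SYN was 17.1, 21.6, 23.6 and 19.9 CPM at 3w and 15.8, 10, 11.1 and 12.2 CPM at 5m. It fell by 0.79 on the log2 scale in SC_SYN (adjusted p = 0.0193), by 0.68 in SC_TH (adjusted p = 0.00985) and by 0.83 in input_TH (adjusted p = 0.00236), while its value of -0.44 in input_SYN did not pass. Pcdhac2 was 34.3, 38.4, 37.3 and 34 CPM in input_TH at 3w and 29, 32, 31.2 and 30.4 CPM at 5m, a small drop without overlap (log2 fold change -0.24, adjusted p = 0.0159). Pcdha5 fell by 0.5 in SC_TH (adjusted p = 0.0258) and had -0.17 in SC_SYN, -0.03 in input_SYN and -0.29 in input_TH, none of which passed.

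Among beta genes, Pcdhb18 was 21.3, 31.4, 28.7 and 20.3 CPM in SC_SYN at 3w and 18.9, 14.9, 14.9 and 15.7 CPM at 5m. It fell by 0.7 in SC_SYN (adjusted p = 0.021) and by 0.73 in SC_TH (adjusted p = 0.00685). In SC_SYN the call of Pcdha3 was lost without mouse 189, 192, 193 or 194, and that of Pcdhb18 without mouse 188, 189, 192, 193 or 194, with log2 values between -0.77 and -0.59. Pcdhb19 was lower in SC_TH (log2 fold change -0.32, adjusted p = 0.0455), and Pcdhb5 in SC_TH (0.55, adjusted p = 0.0364) and Pcdhb2 in input_TH (0.54, adjusted p = 0.0414) were higher.

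Markers of other cells moved with this age step. All 5 oligodendrocyte markers (Mbp, Mog, Mobp, Mag and Cnp) were lower at 5m in each of the 4 fractions, and their sum in SC_SYN was 4340 to 5400 CPM at 3w and 2200 to 2480 CPM at 5m, none at 0. The summed neuron markers were 7670 to 10100 CPM and 7930 to 8910 CPM in the same groups. Microglia markers moved the same way as the gamma genes in SYN, with 3 of 5 higher in SC_SYN (median log2 fold change 0.74, sums of 323 to 396 and 562 to 708 CPM) and 2 of 5 in input_SYN (0.61). In SC_TH 1 of 5 was higher and 0 lower (median 0.25, sums of 148 to 177 and 172 to 225 CPM). In input_TH 1 of 5 was lower and 0 higher. Of the synaptic mRNAs, 2 of 4 were higher in SC_SYN (median 0.49). In SC_TH 3 of 5 nuclear RNAs and 2 of 3 erythrocyte markers were lower, and in input_TH 3 of 3 erythrocyte markers were lower. The part of these shifts in the gamma result was not tested.

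The second age step, 18m against 5m, asked what changed from adult to old cortex. Beta genes made up most of the members that passed in the TH fractions, beside some gamma genes in input_TH. None passed edgeR's test in SC_SYN, where of all 14240 genes tested 1 was called higher and 1 lower. With so few genes past it, the test in SC_SYN cannot tell a small change from none. In input_TH 16 members were higher and 0 lower, where 8.18% of 18078 genes were called higher and 7.35% lower. Of the 16, 11 were beta genes and 5 gamma A or B genes. At an unadjusted p under 0.05 there were 27 higher (12 beta, 9 gamma and 6 alpha genes) and 0 lower. The share of all genes at an unadjusted p is not given, so such counts cannot be set against it. The median log2 fold change was 0.36 for beta, 0.17 for gamma and 0.23 for alpha genes, against 0 over all genes. The 16 calls fell to 9 without mouse 196 or 198, to 10 without mouse 193 or 194, and to 9 when counts were scaled by library size.

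SC_TH gave 5 members higher and 0 lower (0.377% and 1.79% of all 16427 genes; 16 and 1 at an unadjusted p under 0.05), and all 5 were beta genes: Pcdhb2, Pcdhb3, Pcdhb7, Pcdhb9 and Pcdhb11. Each of these was also higher in input_TH. The count was 9 without mouse 191, 3 without mouse 194, 195, 196 or 197, and 2 without mouse 193 or 198. In input_SYN 1 member was called, Pcdhb7 (0.0308% of 12975 genes were called higher and 0.108% lower), and the count was 0 without any one of mice 191 to 196. In SC_SYN no member passed edgeR's test in either direction (0.00702% of genes in each), 7 were higher and 10 lower at an unadjusted p under 0.05, and DESeq2 called 3 higher (Pcdhb2, Pcdhb7 and Pcdhb9) and 4 lower (Pcdha6, Pcdha9, Pcdhb15 and Pcdhb22). The beta median was 0.31 in SC_TH, 0.17 in input_SYN and 0.06 in SC_SYN.

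Pcdhb2 had the lowest adjusted p of the members in input_TH and SC_TH. In input_TH it was 2.65, 3.88, 3.01 and 3.99 CPM at 5m and 6.89, 7.55, 6.22 and 7.15 CPM at 18m (log2 fold change 1.04, SE 0.145, adjusted p = 0.00109). In SC_TH it was 7.54, 8.76, 6.38 and 5.57 CPM at 5m and 12.5, 13.2, 12.2 and 13.1 CPM at 18m (0.87, SE 0.126, adjusted p = 0.00302). The ages did not overlap in these fractions. In SC_SYN it was 21.6, 24.1, 20.8 and 25.6 CPM and then 31.9, 32.3, 33.4 and 48.5 CPM, also without overlap, with a log2 fold change of 0.68 that did not pass edgeR's test.

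Pcdhb9 was 7.5, 7.92, 6.69 and 7.13 CPM in input_TH at 5m and 10.4, 10.6, 12.3 and 11.8 CPM at 18m (log2 fold change 0.63, SE 0.0983, adjusted p = 0.00196). In SC_TH it rose by 0.62 (SE 0.112, adjusted p = 0.011). In SC_SYN it was 43.6 to 57.3 CPM at 5m and 64 to 95.9 CPM at 18m, and in input_SYN 33.1 to 44.8 and 52.5 to 63.8 CPM. Neither pair overlapped, and neither passed edgeR's test. Among the remaining named genes of input_TH, Pcdhga2 rose by 0.45 (adjusted p = 0.0063) and Pcdhga6 by 0.37 (adjusted p = 0.00714). No C-type gene passed the test in any fraction. In input_TH they stayed within 0.18 of 0 on the log2 scale, but in SC_SYN Pcdhgc4 had -0.45, Pcdhgc3 -0.44, Pcdhgc5 -0.35, Pcdhac1 -0.16 and Pcdhac2 -0.15. In SC_SYN Pcdhgc3 was 231 to 323 CPM at 5m and 153 to 220 CPM at 18m, and Pcdhac2 was 119 to 130 and 93.3 to 118 CPM, neither with overlap. In SC_SYN at 18m, mice 195 and 198 had totals of 6268207 and 5341263 counts, and mice 196 and 197 had 18590040 and 15306804. Pcdhgc4 was 22.5 and 29.9 CPM in the first pair and 43 and 46.4 CPM in the second, against 43 to 57.3 CPM at 5m. Pcdhgc3 was 153 and 168 against 212 and 220 CPM, while Pcdhgc5 did not split this way (640 and 794 against 702 and 627 CPM). The summed gamma A and B genes split too, with 648 and 759 against 863 and 949 CPM. These libraries stand in every comparison that uses SC_SYN at 18m. The part of library depth in these values was not tested.

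Pcdhb7 in SC_TH was 10.4, 6.87, 11.1 and 11.3 CPM at 3w, 1.85, 5.45, 5.3 and 4.59 CPM at 5m, and 11.8, 8.3, 5.59 and 9.62 CPM at 18m. The 5m mice lay below all mice of the other ages, and mouse 191 was the lowest of the 5m group in each of the 4 fractions, with 2.12 CPM in input_TH, 4.05 in input_SYN and 3.61 in SC_SYN. The drop at 5m passed in SC_TH (log2 fold change -1.28, SE 0.299, adjusted p = 0.00813) and input_SYN (-1.17, adjusted p = 0.022). In SC_SYN it was -1.26 with an adjusted p of 0.0501, and in input_TH it was -0.4 (adjusted p = 0.153).

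The rise of Pcdhb7 at 18m passed in input_TH (0.85, adjusted p = 0.00525), SC_TH (1.12, adjusted p = 0.0427) and input_SYN (1.35, adjusted p = 0.0412). The same 5m libraries stand in both age steps, so the drop and the rise are not separate evidence. Without mouse 191 the rise was 0.81 in SC_TH and 1.06 in input_SYN and passed in neither.

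**Figure D3:**
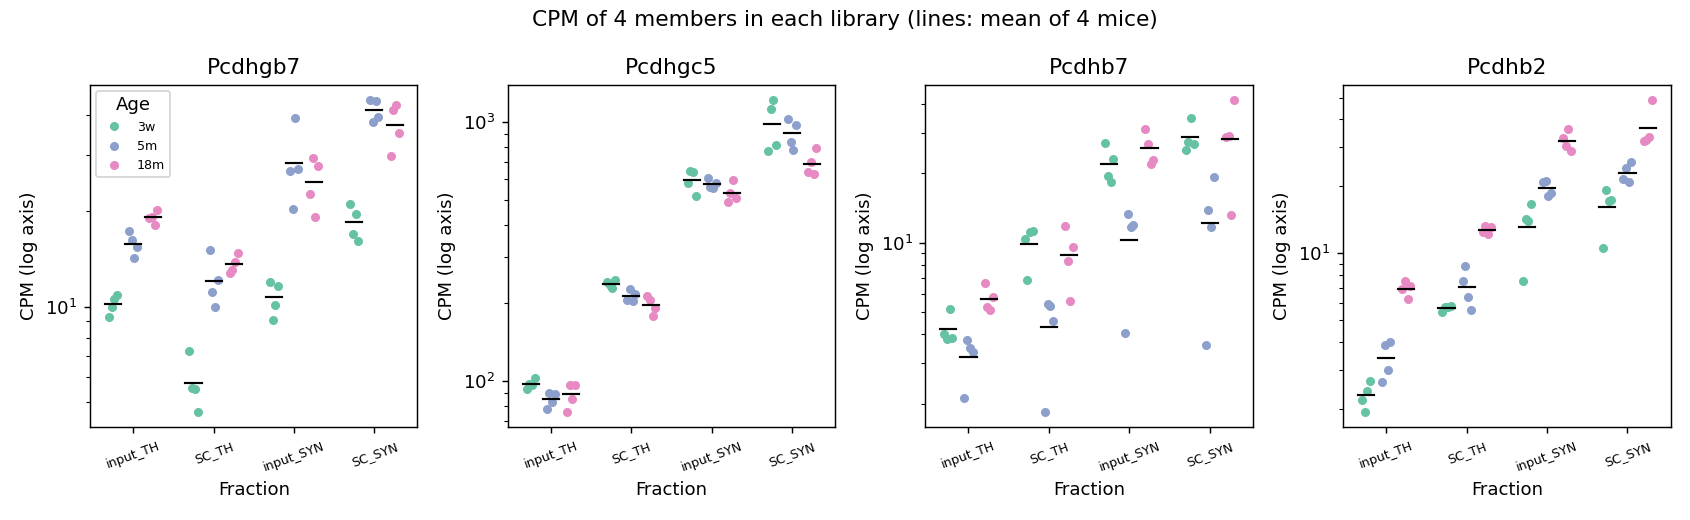
CPM (log axis) of Pcdhgb7, Pcdhgc5, Pcdhb7 and Pcdhb2 in each library by fraction and age, with a line at the mean of 4 mice. Pcdhgb7 is higher at 5m than at 3w in all 4 fractions, Pcdhgc5 shows overlapping ages in SC_SYN, Pcdhb7 is lowest at 5m, and Pcdhb2 is highest at 18m.

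The beta genes called at 18m lay before Pcdhb15 in the order of the cluster. The rank correlation of the log2 fold change with gene order over 21 beta genes was -0.84 in input_TH, -0.82 in SC_TH, -0.81 in input_SYN and -0.67 in SC_SYN. With GC content it was 0.51, 0.37, 0.24 and 0.21. At the first age step the correlation of the beta genes with order was -0.54, -0.68, -0.46 and -0.64. In the same fractions at the second step, the correlation with order was -0.83, -0.37, 0.29 and -0.13 over 13 alpha genes. Over 21 gamma genes it was -0.41, -0.64, -0.43 and -0.51. The first step gave 0.73, 0.63, 0.36 and 0.57 for alpha and -0.01, -0.15, -0.21 and -0.09 for gamma genes. These are descriptions across neighbouring genes measured in the same libraries, and carry no test. All 11 beta genes called in input_TH lay between Pcdhb2 and Pcdhb14, and those from Pcdhb15 to Pcdhb22 were not called.

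**Figure D4:**
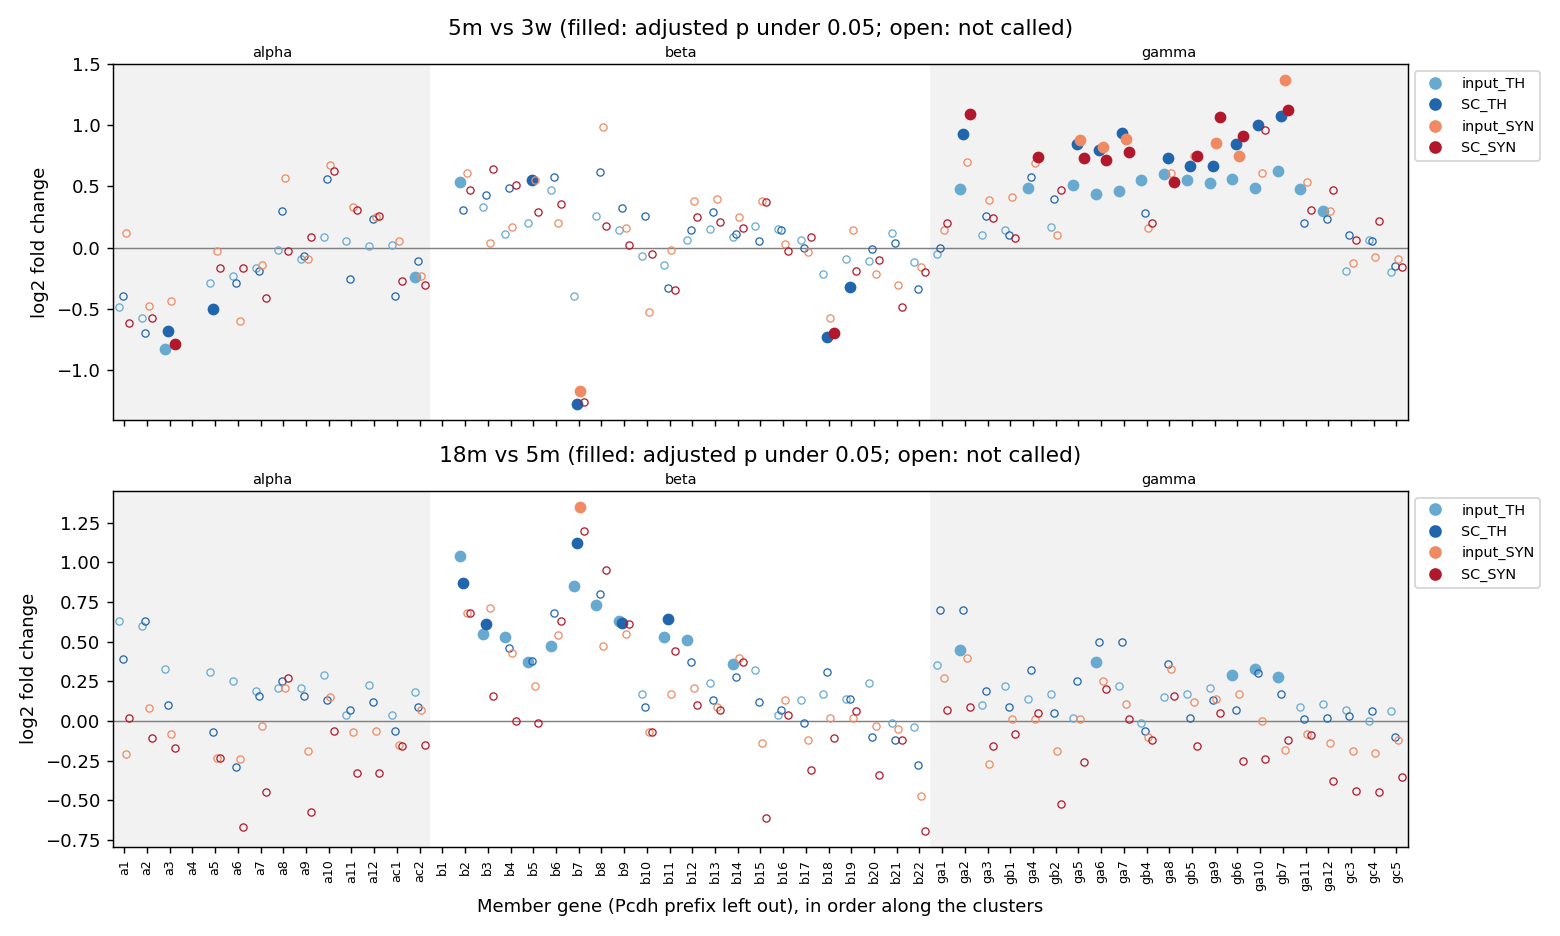
log2 fold change of each tested member at 5m against 3w (top) and at 18m against 5m (bottom), with genes in order along the clusters, colours for the fractions and filled points for an adjusted p under 0.05. Filled points gather in the gamma A and B genes at the first step, such as Pcdhgb7, and in the beta genes before Pcdhb15 at the second, such as Pcdhb2.

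Nuclear RNAs and other cell markers moved at this step as well. In SC_TH the summed nuclear RNAs (Malat1, Meg3, Neat1, Snhg11 and Miat) were 7370 to 11000 CPM at 5m and 5240 to 6280 CPM at 18m, and 4 of 5 were lower. In input_TH, 3 of 4 endothelial markers were lower (median log2 fold change -0.39), 2 of 4 synaptic mRNAs were higher, and of 6 astrocyte markers 1 was higher and 2 lower. In the same fraction 4 of 6 neuron markers and 3 of 5 oligodendrocyte markers were higher, with summed neuron markers of 2800 to 3360 CPM at 5m and 3210 to 3310 CPM at 18m. Their part in the beta result was not tested.

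SYN against TH asked which transcripts were relatively more abundant at synapses. Every member tested was higher in SYN after the cushion: 55 of 55 in SC_SYN against SC_TH at 3w, at 5m and at 18m. Of all 16630 genes, 31.1%, 32.1% and 29.9% were called higher and 32.4%, 35.8% and 32.2% lower. Pcdhgc5 had the largest log2 fold change of all members at each age, 2.09 (adjusted p = 2.47e-13) at 3w, 2.11 (adjusted p = 2.28e-13) at 5m and 1.84 (adjusted p = 3.98e-12) at 18m. Its level at 5m was 205, 226, 204 and 217 CPM in SC_TH and 1030, 837, 776 and 971 CPM in SC_SYN.

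The clusters had like values. The median log2 fold change at 5m was 1.69 for alpha, 1.44 for beta and 1.78 for gamma genes, and members ranged from 1.14 to 2.11. At 18m the medians were 1.28, 1.24 and 1.41, and members ranged from 0.71 to 1.84. Other C-type genes at 5m gave 1.62 for Pcdhgc3, 1.61 for Pcdhgc4, 1.39 for Pcdhac2 and 1.24 for Pcdhac1. Pcdhga11 and Pcdhga8 were among the 5 with the lowest adjusted p at each age, with 1.78 and 1.68 at 5m.

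The fold changes depended on scaling. Scaled by library size alone, the median of all genes moved to -0.59, -0.68 and -0.6 at the 3 ages and the gamma medians to 1.19, 1.19 and 0.88, with 55, 54 and 52 members still called higher. On the TMM scale, the summed gamma level per mouse was 3.67-fold higher in SC_SYN than in SC_TH at 5m and 2.86-fold higher at 18m. The log2 ratio ranged over 1.82 to 1.93 and 1.28 to 1.64. The TMM factors at 5m were 0.785 to 0.826 in SC_SYN and 1.163 to 1.2 in SC_TH, so library size alone gives smaller folds.

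**Figure D5:**
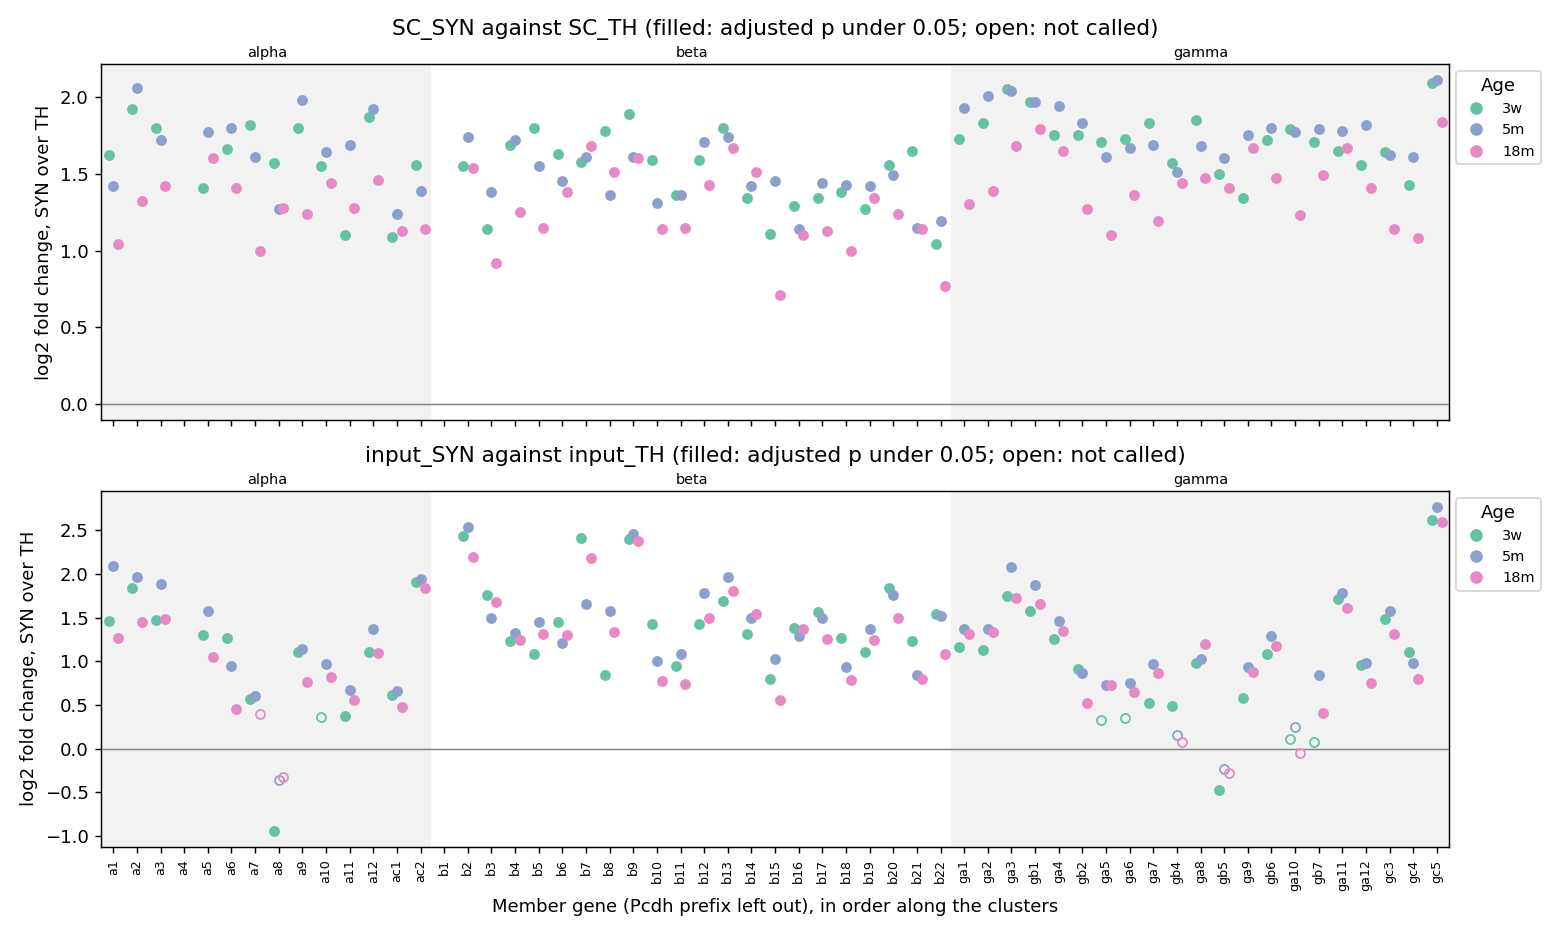
log2 fold change of SYN over TH for each tested member at 3 ages, after the sucrose cushion (top) and in the input (bottom), with filled points for an adjusted p under 0.05. All SC points lie above 0, with Pcdhgc5 highest, and in the input Pcdha8, Pcdhgb5 and Pcdhga10 lie near or below 0.

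In the input, 48 members were higher and 2 lower in SYN at 3w, 51 and 0 at 5m, and 50 and 0 at 18m, where 31.7%, 32.6% and 32.9% of 17860 genes were called higher and 39.3%, 40.1% and 39.4% lower. Pcdhac1 had 0.48 at 18m (adjusted p = 0.00321), which turned to -0.1 by library size. By library size the counts higher and lower were 38 and 4, 36 and 3, and 34 and 4. All 21 beta genes tested were higher at each age, with a median of 1.49 at 5m, against 1.14 for alpha and 0.98 for gamma genes. Pcdhgc5 was again the highest at 2.77, followed by Pcdhb2 at 2.54 and Pcdhb9 at 2.46. At the low end, Pcdha8 and Pcdhgb5 were lower in SYN at 3w (log2 fold change -0.94, adjusted p = 0.0157, and -0.47, adjusted p = 0.0258). The value of Pcdha8 rests on few reads, 12, 14, 1 and 1 in input_SYN at 3w.

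Markers of several sources differed between SYN and TH. At 5m, 6 of 6 astrocyte markers, 4 of 4 synaptic mRNAs and 4 of 5 oligodendrocyte markers were higher in SC_SYN than in SC_TH, with astrocyte sums of 5080 to 5850 against 1500 to 1660 CPM. Neuron markers were split, with 2 higher and 4 lower and sums of 7930 to 8910 against 5100 to 5840 CPM. All 5 nuclear RNAs were lower, with sums of 1070 to 2250 against 7370 to 11000 CPM, and none of these markers was at 0. Their part in the difference of the members was not tested.

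Whether the SYN to TH difference itself changed with age was tested by interaction. No member passed at either step in SC or in the input by edgeR. The unadjusted counts for SC at 18m against 5m were 0 higher and 12 lower, and DESeq2 called 1 member, Pcdhb15 (log2 difference -0.72, adjusted p = 0.0207; edgeR -0.74, adjusted p = 0.114). For SC at the first step they were 2 and 1. For the input they were 3 and 1 at the first step and 0 and 5 at the second, and DESeq2 called none of these. In SC at the second step 4 of 55 members had an interaction above 0, with medians of -0.38 for alpha, -0.2 for beta and -0.33 for gamma genes, against 0.01 over all genes. Of all genes, 0% passed in either direction in SC at that step. In SC at the first step 0.0301% passed higher and 0% lower, and in the input 0% and 0.0224% at the first step and 1.01% and 1.41% at the second.

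SC against input asked which transcripts were richer in the cushion pellet within a compartment. In SYN the members called were mostly gamma genes. At 3w 16 members were higher and 0 lower in SC_SYN than in input_SYN, at 5m 21 and 1, and at 18m 7 and 1, where 9.04%, 9.66% and 5.88% of 14301 genes were called higher and 9.5%, 10.3% and 6.7% lower. Gamma genes made up 12, 17 and 7 of the higher members, and all 21 lay above 0 at each age, with medians of 0.61, 0.58 and 0.44.

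Of the C-type genes, Pcdhgc5 and Pcdhgc3 passed at each age. Pcdhgc5 was 0.69 higher on the log2 scale at 3w (adjusted p = 0.000504), 0.62 at 5m (adjusted p = 0.000981) and 0.38 at 18m (adjusted p = 0.0488). For Pcdhgc3 the values were 0.64, 0.83 and 0.58. Pcdhgc4 passed at 5m (0.67, adjusted p = 0.0423), with 0.38 at 3w and 0.42 at 18m, and the alpha C-type genes passed at no age, with 0.16, 0.08 and -0.15 for Pcdhac2 and 0.19, -0.13 and -0.14 for Pcdhac1. Pcdhgb6 rose by 0.81 at 5m (adjusted p = 2.92e-05). Pcdhb22 was the member lower at 5m (-0.48, adjusted p = 0.0379) and at 18m (-0.71, adjusted p = 0.00556). These counts rest on few mice: the 22 calls at 5m fell to 4 without mouse 191, to 10 without mouse 192 and to 13 without mouse 193. The 16 calls at 3w fell to 8 without mouse 188 and to 9 without mouse 189, and the 8 calls at 18m fell to 5 without mouse 195 or 196 and to 4 without mouse 197.

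In TH, members split. At 3w 14 were higher and 11 lower in SC_TH than in input_TH, at 5m 14 and 13, and at 18m 17 and 16, where 26.1%, 29.9% and 31.3% of 18416 genes were called higher and 26.6%, 32.2% and 32.7% lower. Pcdhgc5 was highest or close to it with 1.3, 1.33 and 1.16 at the 3 ages, and Pcdhb2 gave 1.31, 1.05 and 0.89 and Pcdhb9 0.99, 1.16 and 1.14. Pcdhac2 was higher by 0.57, 0.68 and 0.59 and Pcdhgc3 by 0.55, 0.82 and 0.78. At the other end, Pcdha8 had -1.84, -1.54 and -1.5 and Pcdhgb5 -1.22, -1.11 and -1.27, and the C-type gene Pcdhac1 was lower at 5m (-0.67) and at 18m (-0.77). Pcdha8 had few reads in SC_TH at 3w, 12, 10, 9 and 1. Pcdhga10, with -1.21, -0.73 and -0.77, has an antisense gene on its exons and its reads cannot be assigned to a strand.

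No member passed the interaction test for a change of its SC to input ratio with age. Unadjusted counts higher and lower in SYN were 0 and 0 at the first age step and 0 and 2 at the second. In TH they were 3 and 4 and then 0 and 2, and DESeq2 called none. In TH 1% and 1.32% of all genes passed higher and lower at the first step and 0.608% and 1.17% at the second, and in SYN 0% at both. With no gene past it in SYN, the test cannot tell a small change from none there. In SYN at the second step 10 of 55 members lay above 0. The medians were -0.22 for alpha, -0.1 for beta and -0.2 for gamma genes, against -0.01 over all genes. In TH 20 of 55 lay above 0, with medians of -0.1, -0.07 and -0.04, against -0.02.

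Other genes tied to protocadherin biology were read from 3 lists. Of 11 nonclustered protocadherins tested in SC_SYN, 3 were lower and 0 higher at 5m against 3w, led by Pcdh9 (-0.75, adjusted p = 0.00943) and Pcdh15 (-0.5, adjusted p = 0.0291). In SC_TH 2 were lower and 1, Pcdh1, was higher (0.46, adjusted p = 0.00214). In input_TH 7 of 12 were lower and 0 higher, and in input_SYN 1 of 11 was lower and 0 higher. In SC_SYN against SC_TH 10 of 11 were higher at each age, with a median of 1.23 at 5m and values of 1.59 for Pcdh19 and 1.45 for Pcdh7.

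Among 18 chromatin and promoter choice factors, the DNA methyltransferase Dnmt3a fell at 5m by 1.52 in SC_SYN (adjusted p = 2.01e-06), by 1.38 in input_SYN, by 0.86 in SC_TH and by 0.51 in input_TH. Of 17 tested in SC_SYN it was the one that passed. In input_TH at 18m, 1 of 18 was higher and 5 were lower, led by Smchd1 (-0.36, adjusted p = 0.00477), which silences clustered genes on the X chromosome and elsewhere, and the cohesin subunit Stag2 (-0.35, adjusted p = 0.00569). In SC_SYN at this step Smchd1 had 0.45 and Stag2 0.48, in SC_TH 0.01 and -0.16, and in input_SYN 0.35 and 0.32, none past the test. The list's median was 0.33 in SC_SYN and 0.26 in input_SYN, and 3 of 18 passed higher and 0 lower in the interaction of SYN over TH in the input. In SC_SYN against SC_TH at 5m, 2 of 17 were higher and 11 lower, where 32.1% and 35.8% of all genes were called, among them the cohesin regulator Pds5a (-0.96, adjusted p = 1.94e-08).

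Of 20 partners and proteases, the kinase Fyn fell in all 4 fractions at 5m, by 0.82 in SC_SYN (adjusted p = 0.000283) and by 0.54 in input_TH (adjusted p = 3.28e-05). Ptk2b, which encodes the kinase Pyk2 that protocadherin tails bind, rose by 0.4 in SC_SYN (adjusted p = 0.0263) and by 0.5 in SC_TH (adjusted p = 0.000199). At 5m, 10 of the 20 were higher and 6 lower in SC_SYN than in SC_TH, against 32.1% and 35.8% of all genes. The gamma-secretase subunit Ncstn was higher by 1.6 and the synaptic adhesion gene Nlgn2 by 1.27.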

How the data were processed

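Libraries were made by the authors with a stranded kit after rRNA depletion and read from a single end. The deposited table holds raw counts per gene, made by the authors with TopHat2 2.1 on GRCm38, the Ensembl annotation of release 85 and featureCounts without strand; bcl2fastq 2.20.0.422 is also named in the submitters' notes, and molecular tag deduplication is not given in the sources used here. All 48 columns were used. Symbols, exons and lengths came from GENCODE M21 of the same build, which held 48144 of 48526 identifiers and differs from the authors' release. It gives the symbol Pcdha11 to a pair of genes, and the one that RefSeq places as Pcdha10 is called so here.

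Counts were tested with edgeR 4.0.16 in R 4.3.3 (TMM, filterByExpr, quasi-likelihood test, Benjamini-Hochberg over all genes of the fit, threshold 0.05). Age comparisons used the 12 libraries of a fraction, and comparisons of fractions and interactions used the 24 libraries of both fractions. DESeq2 1.42.0, library size scaling, no filter, the mouse as a block and each mouse left out were alternatives. Shares of all genes called are those of the main edgeR test at an adjusted p. Counts at an unadjusted p and counts under the alternatives have no such share beside them. The scripts were tested on simulated data with planted changes. Python 3.11.15, pandas 2.3.3 and matplotlib 3.10.9 were used for annotation and figures. Library totals ran from 9699909 to 13225435 in input_TH, 3058278 to 15423546 in SC_TH, 1780267 to 7879536 in input_SYN and 5341263 to 18590040 in SC_SYN. The variance between libraries of a group was 1.98 to 32.2 times that of counting error over 72 pairs (chi-square per degree of freedom). Each library was therefore counted as 1 replicate.

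The 4 fractions of a mouse share the animal, so mouse numbers pair the fractions. The median correlation of deviations of paired libraries ran from -0.00975 to 0.111 over the 6 pairs of fractions. The members, lists and tests were chosen with earlier results of these data known. Genes named are the 5 C-type genes, the 3 of each cluster with the highest level per kilobase, up to 5 members per direction with the lowest adjusted p in each comparison, and up to 2 genes per direction from the 3 lists of other genes. Names given besides these, such as those completing a count, were chosen after their values were seen. One gene of the marker lists is not reported here and was left out of its list's sums and counts.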

Additional observations from a re-analysis of the deposited data

Results flagged for a closer look

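Of 168 groups of 4 libraries, 12 held a library far from the others by Dixon's criterion, and chance alone flags about 1 in 20 groups. Mouse 198 at 18m in SC_SYN was the highest library for Pcdhb2 (48.5 CPM, others 31.9 to 33.4), Pcdhb9 (95.9 CPM, others 64 to 69.4) and Pcdha3 (14.6 CPM, others 9.42 to 9.6). In the same group mouse 195 was lowest for Pcdhac2 (93.3 CPM, others 116 to 118), and at 3w mouse 189 was highest for Pcdhac2 in SC_SYN (165 CPM, others 146 to 149). In SC_TH at 3w, mouse 187 was lowest for Pcdhb2 (5.46 CPM, others 5.73 to 5.78) and mouse 189 highest for Pcdhga9 (13.3 CPM, others 10.4 to 10.7). In input_TH at 3w, mouse 189 was highest for Pcdhb7 (5.15 CPM, others 3.83 to 4.03), mouse 188 lowest for Pcdhb18 (7.08 CPM, others 9.88 to 10.3) and mouse 190 lowest for Pcdhgc3 (51.4 CPM, others 56.8 to 57.4). The summed beta level of mouse 191 in input_TH at 5m was 140 CPM (others 161 to 164), and the library total of mouse 187 in input_TH at 3w was 13225435 counts (others 9827220 to 10385227).

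Genes inside the span of the clusters that are no members also had reads. Of 28 such rows, 24 had reads and 7 reached a median of 10 reads in some fraction. The highest median was 71.5 reads for the pseudogene Gm36858 in input_TH. The protein-coding gene Taf7 had 59.5 reads in SC_TH. In input_TH the medians were 47.5 for Gm19035, 36.5 for Gm26672, 36 for 3222401L13Rik, 28.5 for Gm18150 and 12 for Gm10545.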

How the results depend on the processing

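Of the counts of called members, 98 of 104 under other settings and 147 of 176 with a mouse left out stayed within 1.5 times the reported count. Medians and levels were less stable. Of 224 cluster medians of log2 fold change under other settings, 181 stayed within the SD over mice of the reported value. Of 36 summed cluster levels scaled by library size in place of TMM, 0 counted as the same, so CPM levels hold for TMM scaling only. DESeq2 called 19 members in SC_SYN at 5m against 3w (reported 12), 7 in SC_SYN at 18m against 5m (reported 0) and 1 for SYN over TH in SC at 18m against 5m (reported 0). Without a filter on low counts, SC_TH at 18m against 5m gave 11 (reported 5) and input_SYN 3 (reported 1). Library size scaling gave 9 in input_TH at 18m against 5m (reported 16) and turned Pcdhac1 in input_SYN against input_TH at 18m to -0.1. The cause of these shifts was not tested. With the mouse as a replicate block, 55 members were higher in SC_SYN than in SC_TH at each age, and the block moved no count beyond 1.5 times. With each mouse left out, counts ran over 7 to 14 for SC_SYN and 4 to 7 for input_SYN at 5m against 3w, over 2 to 9 for SC_TH, 0 to 1 for input_SYN and 9 to 19 for input_TH at 18m against 5m, and over 8 to 13, 4 to 17 and 4 to 8 for SC against input of SYN at 3w, 5m and 18m. Of named members, 518 of 527 values under other settings and 656 of 732 with a mouse left out kept their direction and call. Library totals were lowest in input_SYN, from 1780267 counts.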
